A study of Mus musculus with 12 samples.

Results

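Genes of glucocorticoid signaling were followed in the prefrontal cortex of mice by their RNA, with no measure of the hormone or of receptor activity. The 10 genes, chosen by name, were the receptors Nr3c1 and Nr3c2 and 8 genes that glucocorticoids are known to regulate. These 8 were Fkbp5, Sgk1, Tsc22d3, Zbtb16, Pdk4, Errfi1, Mt1 and Mt2. All 10 were listed, on 1 locus each, in every one of the 3 deposited tables, which hold 41319, 42527 and 41667 loci for 2 h, 24 h and 7 d. The mice were 10-week-old C57BL/6 males injected into the peritoneum on 14 mornings with saline or with 20 mg/kg of cocaine. Tissue was taken 2 h, 24 h or 7 d after the final dose. The 6 groups, saline and cocaine at each time, gave 2 poly(A) RNA libraries each, and every library pooled the tissue of 5 mice. The control mice were injected too, and the tissue was the front 1.5 mm of the brain, which held several cortical areas.

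The tables give 1 FPKM (sequenced fragments corrected for transcript length and sequencing depth) per gene and group, pooled by the authors over both libraries. These values give no spread between replicates and no depth per library, and no test was made on them, so each value below is the authors' pooled value. A gene was called higher or lower where the pooled FPKM of cocaine and saline differed by at least 1.2-fold. The same share over all named loci whose mean FPKM reached 1 (13351, 13793 and 13431 loci) is given beside the counts. As a scale for single genes, each change was placed among the named loci whose mean FPKM lay within 2-fold of the gene's own, since low values scatter more. Those shares describe the tables and are not p values. All 10 genes passed the FPKM minimum at every time.

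Glucocorticoids (corticosterone in mice) leave the adrenal gland in a daily rhythm and in response to stress, and cocaine is known to raise them. They bind the glucocorticoid receptor, product of Nr3c1, which is held in the cytosol by heat shock proteins and their cochaperones, moves to the nucleus and binds response elements in DNA. The mineralocorticoid receptor, product of Nr3c2, binds the same hormone with higher affinity. The target genes act in different ways: Fkbp5 encodes a cochaperone that lowers the receptor's affinity for its hormone, Tsc22d3 encodes GILZ, an anti-inflammatory regulator of transcription, and Zbtb16 encodes a zinc finger repressor. Sgk1 encodes a kinase that acts on ion channels and transporters, Pdk4 a mitochondrial kinase that inhibits pyruvate dehydrogenase, Errfi1 an inhibitor of the EGF receptor, and Mt1 and Mt2 the metal-binding metallothioneins.

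The promoter windows of 8 of the genes were available from RefSeq on GRCm38, as 16 windows of 300 bases (250 before and 50 after each annotated start). They were searched on both strands for the full palindromic glucocorticoid response element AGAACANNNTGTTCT, for the hexamer AGAACA, a single arm of that element, which also lies within it, and for the metal response element core, TGCACNC or TGCGCNC. The full element stood in 1 of the 16 windows, one of 6 annotated starts of Sgk1, and in 3 of 32851 windows of all genes (0.00913%). The hexamer stood in 4 of the 16 windows, 3 of Sgk1 and 1 of Tsc22d3, against 19.0% of all windows. A match is a description of the letters, and no match in these windows says nothing of sites elsewhere in a gene. The Sgk1 and Tsc22d3 windows are shown because these genes differed from saline in opposite directions at 2 h. Capitals mark the full element and hexamers of Sgk1 (chr10:21993640-21993939, plus strand) and the hexamer of Tsc22d3 (chrX:140600473-140600772, minus strand).
Sgk1: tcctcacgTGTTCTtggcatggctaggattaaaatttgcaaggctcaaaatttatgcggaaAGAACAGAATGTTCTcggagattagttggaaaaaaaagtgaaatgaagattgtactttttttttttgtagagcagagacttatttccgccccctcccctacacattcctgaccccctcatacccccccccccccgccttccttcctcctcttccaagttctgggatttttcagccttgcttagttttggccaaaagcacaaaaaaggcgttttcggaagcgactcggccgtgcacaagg
Tsc22d3: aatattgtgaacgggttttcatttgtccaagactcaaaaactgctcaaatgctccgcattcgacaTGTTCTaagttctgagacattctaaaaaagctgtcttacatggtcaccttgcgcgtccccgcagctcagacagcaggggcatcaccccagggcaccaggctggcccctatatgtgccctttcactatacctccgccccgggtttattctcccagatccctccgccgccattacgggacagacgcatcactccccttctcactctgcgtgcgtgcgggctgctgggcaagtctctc

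The windows of the metallothioneins are shown because both genes were higher in cocaine at 2 h. The metal response element core, to which the metal-sensing factor MTF1 binds, stood at 3 places in the window of Mt1 and at 4 in that of Mt2. Of all windows 1.97% held at least 3 such cores and 0.517% at least 4. Neither window held the hexamer AGAACA. Capitals mark the cores in Mt1 (chr8:94178839-94179138, plus strand) and Mt2 (chr8:94172368-94172667, plus strand).
Mt1: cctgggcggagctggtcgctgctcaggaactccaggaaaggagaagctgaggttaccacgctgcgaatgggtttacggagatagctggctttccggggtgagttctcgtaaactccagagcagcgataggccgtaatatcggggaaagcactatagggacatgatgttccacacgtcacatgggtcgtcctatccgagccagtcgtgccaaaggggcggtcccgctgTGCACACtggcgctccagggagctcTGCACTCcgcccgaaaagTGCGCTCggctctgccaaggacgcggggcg
Mt2: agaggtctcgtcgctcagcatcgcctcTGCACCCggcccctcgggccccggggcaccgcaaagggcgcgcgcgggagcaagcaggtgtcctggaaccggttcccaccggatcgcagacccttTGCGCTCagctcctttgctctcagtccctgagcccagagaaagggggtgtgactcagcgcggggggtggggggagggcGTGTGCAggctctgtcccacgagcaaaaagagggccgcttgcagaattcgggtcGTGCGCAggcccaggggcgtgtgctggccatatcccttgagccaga

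At 2 h after the last dose most of the target genes stood higher in cocaine than in saline. Of the 10 genes 7 were at least 1.2-fold higher, Fkbp5, Tsc22d3, Zbtb16, Errfi1, Mt1, Pdk4 and Mt2 in order of size, against 10.7% of all named loci. One gene, Sgk1, was at least 1.2-fold lower, against 7.30% of all loci, and the receptors Nr3c1 and Nr3c2 lay within the limits. The median log2 change of the 10 genes was 0.31, where that of all loci was 0.02. Median-centring left 6 of them higher, without Mt2, and a pseudocount of 1 also left 6, without Pdk4. At 1.5-fold 1 was left, Fkbp5, against 2.08% of all loci higher. The genes and the threshold were chosen with earlier results of these data known, so these counts are a description and not a test.

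At 24 h the count was 1 higher, Tsc22d3 (6.23% of all loci), and 1 lower, Pdk4 (5.48% of all loci), with a median of 0.00. At 7 d Zbtb16 alone was higher, against 8.61% of all loci, none was lower, against 11.8%, and the median was 0.08. The median of all loci was 0.01 at 24 h and -0.01 at 7 d. So near the background shares, the counts at 24 h and 7 d are not a result about these genes as a group.

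**Figure D1:**
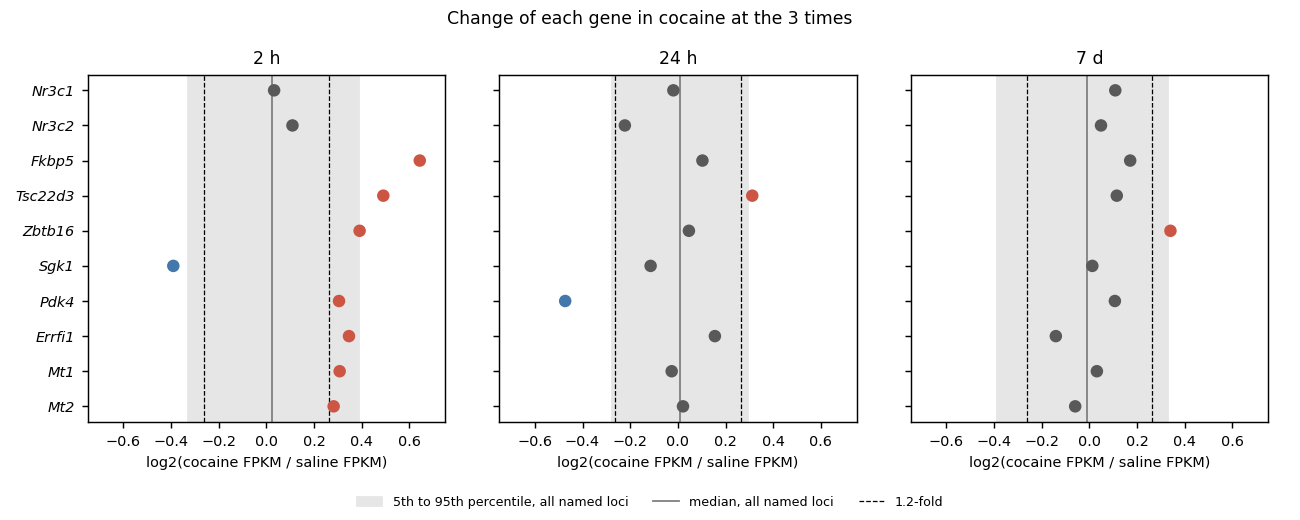
Log2 ratio of cocaine to saline FPKM (horizontal axis) for each gene (rows) at the 3 times (panels), 1 pooled value per group; the grey band spans the 5th to 95th percentile of all named loci, the grey line is their median, the dashed lines mark 1.2-fold, and red and blue points lie past it. At 2 h, 7 genes lie to the right and Sgk1 to the left; at 24 h and 7 d, 2 genes and 1 gene lie outside the dashed lines.

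The receptor genes differed little between cocaine and saline. Nr3c1 (chromosome 18, 39410545 to 39519421 of GRCm38) had, in saline and cocaine, 14.1 and 14.4 FPKM (2 h), 14.4 and 14.2 FPKM (24 h), then 12.9 and 13.9 FPKM (7 d). Its 6 values spanned 1.11-fold, the narrowest range of the 10 genes, and its log2 changes were 0.03, -0.02 and 0.11. Corrected for the trend of change over transcript length, the 7 d value was -0.02. Nr3c2 (chromosome 8, 76898083 to 77245012) had 8.00 and 8.63 FPKM (2 h), 9.12 and 7.82 FPKM (24 h), then 6.13 and 6.34 FPKM (7 d). The largest step for Nr3c2 was the lower value in cocaine at 24 h (log2 -0.22), and 12.7% of the 5148 loci of like FPKM differed at least as much. Saline alone went from 9.12 FPKM at 24 h to 6.13 at 7 d, 1.49-fold, which is more than any step between cocaine and saline of this gene. The tables were normalized separately, so levels at different times are set side by side here and were not tested. The Nr3c2 locus of the tables starts 292857 bases before the RefSeq gene and spans 5 other annotated genes or pseudogenes, and the library kit does not mark strand, so reads of overlapping genes cannot be told apart.

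**Figure D2:**
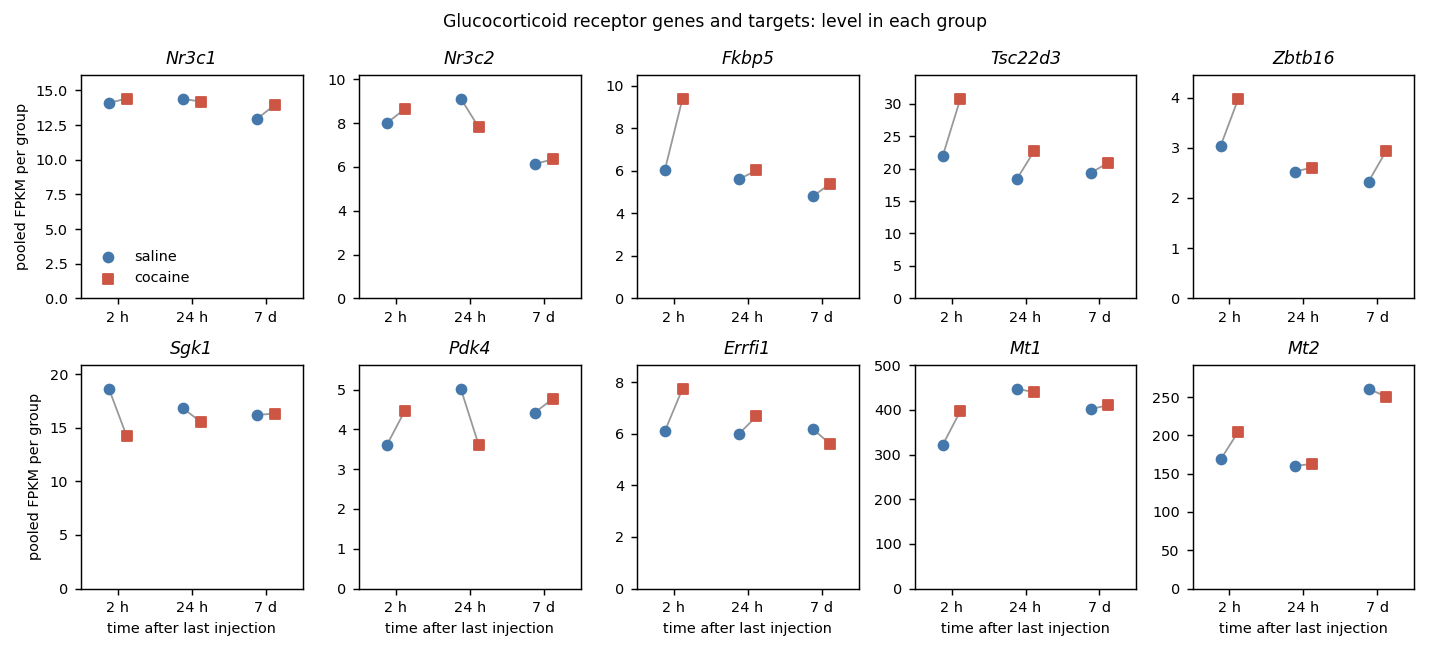
Pooled FPKM of each gene (vertical axes, from 0) in saline (blue circles) and cocaine (red squares) at 2 h, 24 h and 7 d; each point is 1 pooled value per group, so there are no error bars, and grey lines join the groups of 1 table. Fkbp5, Tsc22d3, Zbtb16 and Errfi1 have their highest value in cocaine at 2 h and Sgk1 its lowest. For Mt1 and for Mt2 the widest gap between saline points is larger than the step from saline to cocaine at 2 h.

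Fkbp5 (chromosome 17, 28398753 to 28486149, within a locus that runs to 28517524) showed the largest difference at 2 h, with 6.02 FPKM in saline against 9.40 in cocaine, a ratio of 1.56 (log2 0.64). Of the 5122 loci with like FPKM, 1.97% differed at least as much. At 24 h the values were 5.60 and 6.02 FPKM (log2 0.10), and at 7 d 4.80 and 5.40 (log2 0.17), where 47.5% and 37.8% of like loci differed as much. Cocaine was above saline at each time, but only the 2 h value in cocaine stood apart from the other 5, which lay between 4.80 and 6.02 FPKM. The order from high to low was cocaine then saline at 2 h, cocaine then saline at 24 h, and cocaine then saline at 7 d. With no values per library it cannot be said which neighbours in that order differ beyond replicate spread.

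Tsc22d3 (chromosome X, 140539528 to 140600522), which encodes GILZ, had 21.9 FPKM (saline) against 30.8 (cocaine) at 2 h, a ratio of 1.41 (log2 0.49), a size reached by 1.85% of 3626 like loci. It was the one gene called higher at both 2 h and 24 h. At 24 h it was at 18.3 and 22.8 FPKM, a ratio of 1.24 (log2 0.31, reached by 3.20% of 4151 like loci). At 7 d the values were 19.3 and 20.9 FPKM (log2 0.11). In cocaine both the 2 h and the 24 h value lay above all 3 saline values, which ran from 18.3 to 21.9 FPKM.

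Zbtb16 (chromosome 9, 48651797 to 48836225) is the least abundant of the genes. At 2 h it had 3.04 FPKM (saline) against 3.98 (cocaine), a ratio of 1.31 (log2 0.39). At 24 h the values were 2.52 against 2.61 (log2 0.05), and at 7 d 2.32 against 2.94, a ratio of 1.27 (log2 0.34). It was thus past 1.2-fold at 2 h and 7 d and not at 24 h. At this low level such differences were common: 11.5% of like loci at 2 h and 16.6% at 7 d were at least as far apart. With a pseudocount of 1 the 7 d value was 0.25 and no longer past the limit. The 7 d value in cocaine also lay below the 3.04 FPKM of saline at 2 h. The locus overlaps Gm32280.

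Errfi1 (chromosome 4, 150853796 to 150868889), a feedback inhibitor of EGF receptor signaling, had 6.09 FPKM (saline) against 7.75 (cocaine) at 2 h (ratio 1.27, log2 0.35), and 9.51% of like loci differed as much. Its saline values were the steadiest of the 10 genes, between 5.99 and 6.18 FPKM over the 3 tables, a 1.03-fold range. In cocaine it was at 6.68 FPKM at 24 h and 5.61 at 7 d, above and below all saline values, with log2 changes of 0.16 and -0.14. The locus of the tables starts 28063 bases before the RefSeq gene and holds 2 further annotated genes, 1700045H11Rik and Rps15a-ps3.

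Sgk1 (chromosome 10, 21882184 to 21999903) went the other way. It had 18.6 FPKM (saline) against 14.2 (cocaine) at 2 h, 1.31-fold lower (log2 -0.39), and 4.04% of 4558 like loci differed as much. At 24 h it was at 16.8 and 15.6 FPKM (log2 -0.11), and at 7 d at 16.2 and 16.3 (log2 0.01). Cocaine at 2 h was the lowest of the 6 values and saline at 2 h the highest. The lowest saline value, 16.2 FPKM at 7 d, was 1.14-fold above cocaine at 2 h, which is within the 1.2-fold limit. The 24 h value in cocaine, 15.6 FPKM, also lay below the 3 saline values, which ran from 16.2 to 18.6. The 6 annotated starts of Sgk1, one of which carries the response element printed above, were counted as 1 locus, so the tables do not tell which transcripts were lower. The locus also overlaps Gm18511 and Gm46215.

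Pdk4 (chromosome 6, 5483351 to 5496278), which spares glucose when fat is burned, had 3.60 FPKM (saline) against 4.45 (cocaine) at 2 h (ratio 1.24, log2 0.30). The 24 h values were 5.02 against 3.62, 1.39-fold lower (log2 -0.47). At 7 d it was at 4.42 and 4.76 FPKM (log2 0.11). The 2 h difference was ordinary for its level, since 18.4% of like loci differed as much, whereas 3.04% did at 24 h. The saline values differed among themselves by 1.39-fold, from 3.60 FPKM at 2 h to 5.02 at 24 h, and every cocaine value lay between them. Saline was at its lowest at 2 h and at its highest at 24 h, while cocaine was at 4.45, 3.62 and 4.76 FPKM at 2 h, 24 h and 7 d. The tables were normalized separately, and the part of each group in the opposite directions was not tested.

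Mt1 (chromosome 8, 94178883 to 94180327) and its neighbour Mt2 (chromosome 8, 94172618 to 94173567) were the most abundant of the genes. Mt1 had 321.6 FPKM (saline) against 398.0 (cocaine) at 2 h (ratio 1.24, log2 0.31), then 447.7 against 439.7 (24 h) and 402.0 against 410.8 (7 d). Mt2 had 168.6 against 205.0 FPKM at 2 h (ratio 1.22, log2 0.28), then 160.3 against 162.7 (24 h) and 261.0 against 250.4 (7 d). At their high level few loci differed as much at 2 h, 2.27% of 309 for Mt1 and 2.85% of 631 for Mt2. At 24 h and 7 d the log2 changes of both genes lay between -0.06 and 0.03.

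For both metallothioneins the widest gap between saline values of different tables was larger than the step between treatments. Saline Mt1 was 1.39-fold higher at 24 h than at 2 h, and its 398.0 FPKM in cocaine at 2 h lay below saline at 24 h and 7 d. Saline Mt2 differed by 1.05-fold between 2 h and 24 h but spanned 1.63-fold over the 3 tables, and its level at 7 d, in both groups, was above all values at the other times. The Mt2 locus of the 7 d table starts 348 bases before that of the other tables and was 1298 in place of 950 bases long, and the part of this in the Mt2 level was not tested. The genes are close relatives with short transcripts (longest coding transcripts of 631 and 556 nt). Only reads with a unique position were retained, so any read that fitted both genes was not counted. The part of this in their levels was not tested. Corrected for the length trend, the 7 d log2 changes were 0.26 for Mt1, past the limit, and 0.17 for Mt2.

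**Figure D3:**
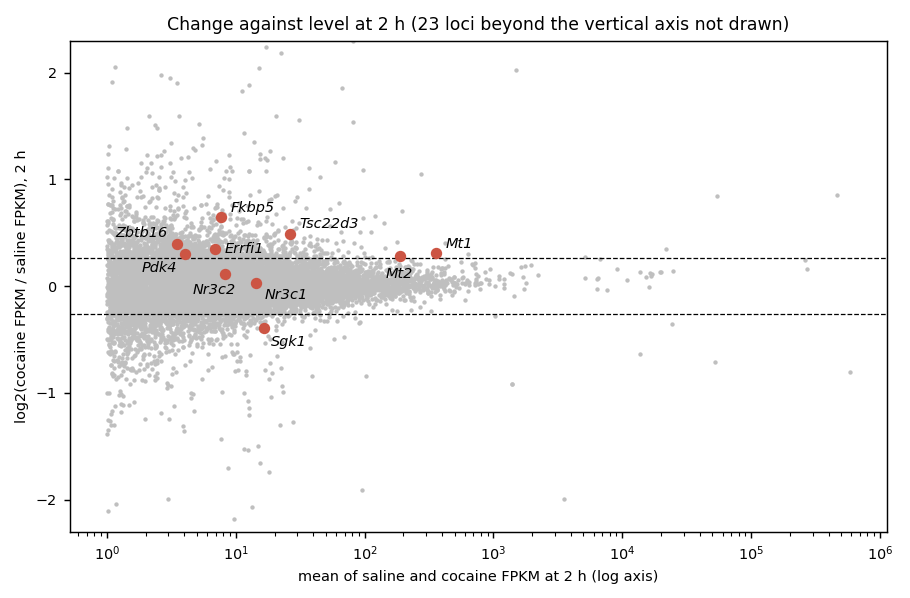
Log2 ratio of cocaine to saline FPKM at 2 h (vertical axis) against the mean FPKM of both groups (horizontal log axis) for named loci (grey), with the 10 genes in red and 1.2-fold as dashed lines; loci beyond the vertical axis are not drawn. Fkbp5, Tsc22d3, Mt1, Mt2 and Sgk1 lie at the edge of the loci of like level, where 1.85% to 4.04% differed as much, while Zbtb16, Pdk4 and Errfi1 lie nearer the bulk.

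Set over all 6 values, cocaine at 2 h was the highest for 5 of the 10 genes, Nr3c1, Fkbp5, Tsc22d3, Zbtb16 and Errfi1, as it was for 23.6% of 13238 genes with at least 1 FPKM in every group. It was the lowest for 1 gene, Sgk1, against 18.4% of genes. Nr3c1 is among the 5 by a narrow margin, 1.002-fold above its highest saline value, and the tables compared were normalized separately. Cocaine at 2 h was at least 1.2-fold above the highest saline value of any table for 4 genes, against 3.99% of genes: 1.56-fold for Fkbp5, 1.41-fold for Tsc22d3, 1.31-fold for Zbtb16 and 1.25-fold for Errfi1. For Mt1, Mt2 and Pdk4 it lay below that highest saline value, at 0.889, 0.786 and 0.887 of it. Between saline at 2 h and at 24 h, 3 of the genes differed by 1.2-fold or more, Zbtb16, Pdk4 and Mt1, where 15.4% of all genes did. Between saline at 2 h and 7 d, 6 did, against 23.9%.

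The change at 2 h exceeded that at 24 h by 0.54 on the log2 scale for Fkbp5, 0.18 for Tsc22d3, 0.34 for Zbtb16 and 0.33 for Mt1. The same difference was 0.78 for Pdk4, whose sign turned, and -0.28 for Sgk1. These differences were not tested. The genes most like Fkbp5 over the 6 log2 values were Smim3, Luzp1, Nop9, Lzts3 and Pcdh1, with Pearson's r from 0.993 to 0.998. With 6 points, which share their libraries, high values were frequent: 542 of 13228 genes had r over 0.9. Smim3 had 4.26 FPKM (saline) against 6.47 (cocaine) at 2 h, and Pcdh1 24.5 against 37.0. For Sgk1 the most alike was a locus named for 6820431F20Rik and AC152164.1 (r = 0.964), with 12.3 FPKM (saline) against 8.03 (cocaine) at 2 h, followed by Tmco6, Epha3 and Mysm1 (r from 0.944 to 0.955), and 35 genes had r over 0.9.

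The same count was made for other genes known to be induced by glucocorticoids. This list and the threshold were chosen with earlier results of these data known, so the count is a description and not a separate test. Of 25 listed, 22 passed the FPKM minimum, and of these 13 were at least 1.2-fold higher in cocaine at 2 h and 0 lower, where 10.7% and 7.30% of all named loci were, and the median log2 change was 0.29. The largest were Dusp1, a MAP kinase phosphatase, from 5.85 to 24.2 FPKM (4.14-fold), Per1, a clock gene, from 9.17 to 21.7 (2.37-fold), and Nedd9, a scaffold of focal adhesions, from 1.17 to 2.29 (1.95-fold). Dusp1 and Per1 are also induced by neuronal activity, so the list is not one of receptor targets alone. Klf9, by contrast, was at 55.7 and 56.6 FPKM at 2 h (1.02-fold), and Arrdc2 at 2.72 and 2.28 (log2 -0.26). At 24 h 5 of the 22 were higher, with Per1 (9.46 and 16.2 FPKM) and Dusp1 (11.9 and 16.7) the largest, and 2 were lower, Arrdc2 and Cebpd, against 6.23% and 5.48% of all loci. At 7 d 4 were higher and 0 lower, against 8.61% and 11.8%, with Dusp1 at 6.14 and 10.3 FPKM, Cebpd at 1.596 and 2.21, and Gjb6 at 28.9 and 36.2. The medians at 24 h and 7 d were 0.10 and 0.09.

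Of 15 genes for the receptor's chaperones, 3 were past 1.2-fold at 2 h, all higher, against 10.7% of all loci: Hspa1a and Hspa1b, which share 1 locus (6.30 and 8.38 FPKM), and Dnajb1 (23.5 and 29.2). None was past it at 24 h, against 6.23% of all loci higher and 5.48% lower, and Dnajb1 came nearest (22.9 and 27.4 FPKM). At 7 d 1 was past it, the cyclophilin Ppid, which was lower (35.6 and 29.0 FPKM). Of all loci 8.61% were higher and 11.8% lower at 7 d. The list medians lay between -0.05 and 0.01. Among the coregulators, the acetyltransferase gene Ep300 was higher at 2 h (1.22-fold) and 7 d (1.26-fold), and the Mediator subunit gene Med1 at 24 h (1.28-fold). The list medians were 0.11, 0.04 and 0.16.

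The next list held genes of steroid metabolism and of the corticotropin-releasing hormone system, read here in cortex and not in the organs that release the hormones. Of these, 1 was higher at 2 h, 2 were higher and 2 lower at 24 h, and 2 were lower at 7 d. The shares of all loci, higher and lower, were 10.7% and 7.30% (2 h), 6.23% and 5.48% (24 h), then 8.61% and 11.8% (7 d). Hsd11b1, the enzyme that regenerates active glucocorticoid within cells, had 10.6 FPKM (saline) against 11.3 (cocaine) at 2 h, 13.1 against 8.996 at 24 h (1.45-fold lower) and 12.8 against 11.96 at 7 d. Crh, the corticotropin-releasing peptide that cortical interneurons also make, had 5.06 against 4.68 FPKM at 2 h, 6.51 against 5.15 at 24 h (1.26-fold lower) and 6.87 against 5.33 at 7 d (1.29-fold lower). Pomc was lower at 7 d (1.66 and 1.01 FPKM), and Avp was higher at 2 h (1.21 and 1.90 FPKM) and at 24 h (0.141 and 3.23), where it passed the FPKM minimum only through the value in cocaine. The steroid reductase gene Srd5a1 lay just past the limit at 24 h (2.45 and 2.95 FPKM). Of the 10 listed genes 7, 7 and 6 passed the minimum, and Hsd11b2, Akr1c18 and Crhr2 did not at any time.

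Of the metal-handling genes, Mt3, the neural metallothionein, had 417.3 against 475.7 FPKM at 2 h (1.14-fold), 546.0 against 548.5 at 24 h and 445.0 against 539.5 at 7 d (1.21-fold, past the limit). Mtf1, which encodes the metal-sensing factor, was at 2.84 and 3.97 FPKM at 2 h (1.40-fold). Of the 4 genes of this list past the FPKM minimum, 1 was called higher at 2 h and 1 at 7 d, against 10.7% and 8.61% of all loci. Slc30a1, within the limit, lay below saline at 2 h (7.55 and 6.63 FPKM) and 24 h (8.09 and 7.30) and above it at 7 d (6.43 and 6.88). Slc39a14 was at 4.36 and 4.44 FPKM at 2 h. Of 9 measured relatives of the targets, 1 was higher past the limit at 2 h, against 10.7% of all loci, Tsc22d4 (65.8 and 82.3 FPKM, 1.25-fold). At 24 h and 7 d 0 were, against 6.23% and 8.61% of all loci. Over all 76 genes of these lists, of which 68, 68 and 67 passed the minimum, 21 were called higher and 0 lower at 2 h. The counts were 8 higher and 4 lower at 24 h, then 6 higher and 3 lower at 7 d, or 5 and 1 corrected for the length trend. As shares of the genes measured, the higher calls were 30.9% at 2 h against 10.7% of all loci, 11.8% at 24 h against 6.23%, and 8.96% at 7 d against 8.61%. The lower calls were 0% at 2 h against 7.30%, 5.88% at 24 h against 5.48%, and 4.48% at 7 d against 11.8%.

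**Figure D4:**
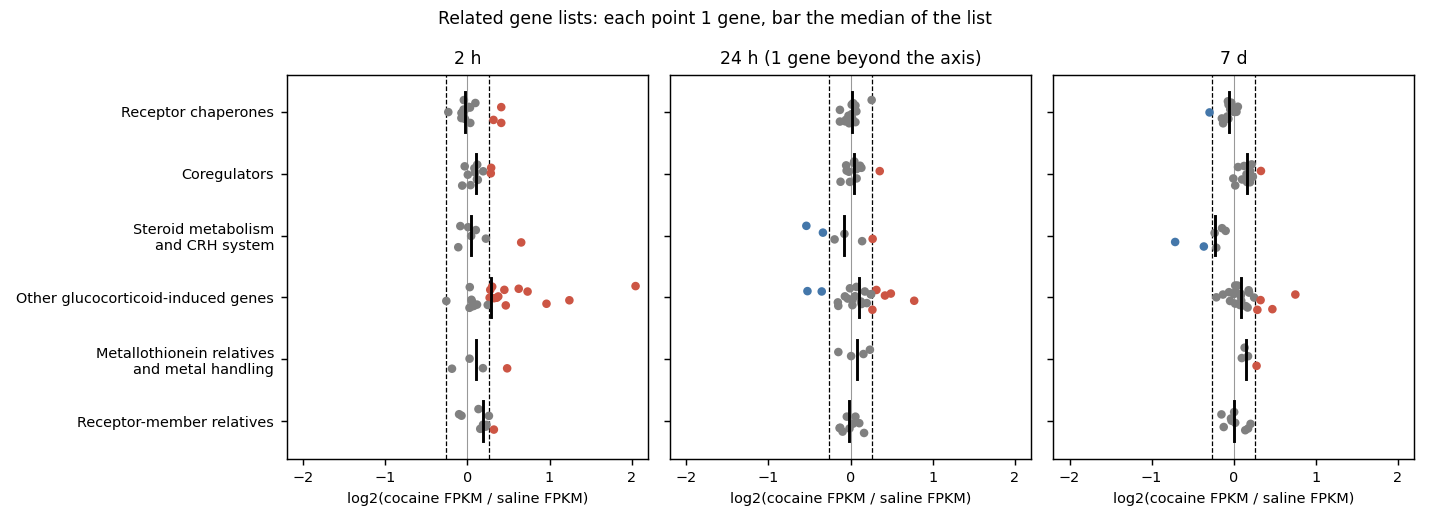
Log2 ratio of cocaine to saline FPKM (horizontal axes) for the genes of 6 related lists (rows) at 2 h, 24 h and 7 d, 1 point per gene past the FPKM minimum; black bars are list medians, dashed lines mark 1.2-fold, and Avp at 24 h lies beyond the axis. The list of other glucocorticoid-induced genes has its median at 0.29 at 2 h and at 0.10 and 0.09 later.

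The tissue carried the markers of cortex: Slc17a7 was between 465.6 and 532.0 FPKM in the 6 groups, and Drd2 of striatal neurons stayed below the minimum of 1, while 4 other striatal markers passed it. Several of the targets are also made outside neurons, and markers of other cells differed at 2 h. All 5 red blood cell genes were at least 1.2-fold higher in cocaine at 2 h, against 10.7% of all loci, with a summed 323.3 FPKM in saline and 503.8 in cocaine (1.56-fold). The 6 endothelial markers had log2 changes of 0.12 to 0.28 and a summed 144.6 and 165.7 FPKM, and the 6 astrocyte markers changes of 0.04 to 0.23 and a summed 554.3 and 623.3. At 24 h the summed astrocyte markers stood at 643.3 and 577.4 FPKM. Aqp4 and Gfap were past the limit on the lower side, against 5.48% of all loci. At 7 d the astrocyte sums were 531.9 and 637.1 FPKM. Gfap, Gja1 and Slc1a2 were then past the limit on the higher side, against 8.61% of all loci. Of the 6 mural cell markers and the 5 red blood cell genes, 3 each were also higher at 7 d and 0 lower. Summed oligodendrocyte markers stood at 669.6 against 630.2 FPKM at 2 h, 802.8 against 668.6 at 24 h and 781.8 against 775.7 at 7 d. The choroid plexus gene Ttr went from 1.90 to 0.461 FPKM at 2 h and from 0.284 to 6.54 at 7 d, and the other 5 markers of that tissue stayed below 1. In pooled tissue more cells of a type and more RNA per cell cannot be told apart, and the part of these markers in the values above was not tested.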

How the data were processed

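Per the labels, the authors made 12 libraries, 2 for each of 6 groups. After trimming (cutadapt in the methods, Trimmomatic 0.32 in the submitters' processing notes), the authors' reads were mapped by TopHat2 (2.0.12 in the notes), those with a unique position were retained, and Cuffdiff (Cufflinks 2.2.1 in the notes, an earlier version in the methods) was run once per time point. The notes name GRCm38 and the methods mm9; the loci lie on GRCm38. The deposited FPKM values are 1 per group, pooled over its libraries. The tables also hold the authors' fold changes, test statistics, p values and q values, which were not used. The headers name the columns ambiguously. Saline was identified from the study's supplementary tables, whose saline and cocaine columns had the same direction for 450 of 456 genes at 2 h, 13 of 14 at 24 h and 529 of 530 at 7 d.

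The log2 ratio of cocaine to saline FPKM was computed, with no pseudocount, for named loci whose mean FPKM reached 1, with both values above 0, in Python 3.11.15 with pandas 2.3.3 and numpy 2.4.6; figures used matplotlib 3.10.9. A gene on several loci took the longest. Calls were made at 1.2-fold. Genes were named from the 10 genes, the 3 genes of each list with the largest change at each time, and the 5 genes most correlated with Fkbp5 and with Sgk1 over 6 values. Klf9 and any other gene given beyond these were named after their values were seen. The genes, lists and threshold were chosen with earlier results of these data known. Transcript lengths were those of the longest protein-coding GENCODE transcript. The striatal marker Drd1 is listed under an older symbol and was not matched. The steps were tested on simulated data. A further gene of the coregulator list is not reported here.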

Additional observations from a re-analysis of the deposited data

Results flagged for a closer look

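Pdk4 and Cebpd, a transcription factor of the C/EBP family, were past 1.2-fold in opposite directions at different times. The log2 change of Pdk4 was 0.30 at 2 h and -0.47 at 24 h, from 3.60 and 5.02 FPKM in saline to 4.45 and 3.62 in cocaine. That of Cebpd was -0.35 at 24 h and 0.47 at 7 d, from 2.26 and 1.596 FPKM in saline to 1.77 and 2.21 in cocaine. For Pdk4 at 2 h, 18.4% of like loci differed as much, and with a pseudocount of 1 its value was 0.24, no longer past the limit. Cebpd, at a low level, was not placed among loci of like FPKM. With 1 pooled value per group, neither difference between times was tested.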

How the results depend on the processing

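No paired analysis was possible because the deposited values are pooled over the libraries of a group, and for the same reason no library could be left out. At 2 h the count of the 10 genes past the limit was 8; it was 1, Fkbp5, at 1.5-fold, and between 6 and 8 under the other alternatives. At 24 h the count of 2 became 1 with a minimum FPKM of 5, which removes Pdk4, 0 at 1.5-fold and 4 at 1.1-fold. At 7 d the count of 1 became 0 with a pseudocount of 1, with a minimum FPKM of 5 and at 1.5-fold, 2 with the length trend taken out and 3 at 1.1-fold. At 1.5-fold the counts over the related lists were lower than at 1.2-fold: 6 against 21 (2 h), 2 against 12 (24 h), 2 against 9 (7 d). Without the length trend they were 18 (17 higher, 1 lower), 10 and 6. Of 60 values of single genes, median-centred or without the length trend, 56 kept the sign, and the largest shift was 0.23 on the log2 scale. Over all loci past the limit at 7 d, the share higher in cocaine was 42.2%, and 53.9% with the length trend taken out (44.5% over the same loci without it). The spread between libraries and the depth were not available from the pooled values, so no difference here was set against replicate error.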

Other observations

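The saline groups differed from one another for some glucocorticoid-induced genes, of which a pair was picked after the values were seen. Klf9, a transcription factor, had saline values of 55.7 (2 h), 40.4 (24 h) and 30.1 FPKM (7 d), beside 56.6, 41.0 and 29.2 FPKM in cocaine. Its 3 ratios of cocaine to saline were 1.02, 1.02 and 0.969, so both groups of each table lay close together while the tables lay apart. Dusp1 was at 5.85, 11.9 and 6.14 FPKM in saline at 2 h, 24 h and 7 d, and at 2 h its step from saline to cocaine, 4.14-fold, was wider than those between saline values. The tables were normalized separately, and these steps were not tested.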
